A study of Rattus norvegicus with 48 samples.

Results

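The miR-148 and miR-152 family was followed through 48 small RNA libraries of the rat brain. Of the 1063 names in the deposited table, 5 belong to it by name: miR-148a-5p and miR-148a-3p, the opposite arms of the mir-148a hairpin, the hairpin entry mir-148a itself, miR-148b-3p and miR-152-3p. No line had to be added to another for any of them. The family was selected on measured values: the study had listed miR-148a-5p for ethanol in the amygdala, in non-enriched and in enriched rats, and mir-148a for enrichment in the ventral striatum of ethanol-exposed rats, each by its difference between groups in these same libraries. The listing of mir-148a also rested on the study's microarrays, that of miR-148a-5p on sequencing alone. The listed contrasts are therefore given as values without a test for all 5 members, and so are the averages over housing or prenatal treatment that contain them. Some of the contrasts that are tested share libraries with a listed one.

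The libraries came from 42-day-old Long Evans rats of both sexes. Dams were injected with ethanol, or with saline for the controls, on gestational day 12. From weaning on day 21 the offspring lived either with same-sex littermates (non-enriched) or with unfamiliar rats of the same age and sex born to an untreated dam (socially enriched). RNA of the whole amygdala or the ventral striatum of 3 rats of one sex and treatment went into each library, so that each region has 24 libraries, 6 for each of the 4 treatment groups (control non-enriched, control enriched, ethanol-exposed non-enriched and ethanol-exposed enriched), 3 of them from females and 3 from males. Pooling hides the spread between single rats, and both regions were taken from the same animals. All rats had been through a social interaction test before the tissue was taken, and litter identity is not in the labels.

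MicroRNAs are cut from a hairpin whose strands give a 5p and a 3p arm. An arm loaded into an Argonaute protein recognises messenger RNAs mainly through its seed, bases 2 to 8, so arms with the same seed share most of their possible targets. In this family the 3p arms carry the shared seed and are the arms usually studied, and DNA methyltransferases are among the targets best known for them. The 5p arm of mir-148a has a seed of its own and thus a separate set of targets.

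The mature sequences are shown because the seed is what makes these names a family; the seed is in capitals. They were taken from RefSeq, which held all 5 members (assembly GRCr8, another build than the one the reads were aligned to), and miR-130a-3p is added as the nearest neighbour in seed.
miR-148a-3p: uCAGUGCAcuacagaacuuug
miR-148b-3p: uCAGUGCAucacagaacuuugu
miR-152-3p: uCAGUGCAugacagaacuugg
miR-148a-5p: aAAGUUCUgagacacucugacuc
miR-130a-3p: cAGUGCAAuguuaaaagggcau
In that assembly miR-148a-3p lies at chr4:81664447-81664467 and miR-148a-5p at chr4:81664483-81664505 on the minus strand, miR-148b-3p at chr7:136299930-136299951 and miR-152-3p at chr10:82329435-82329455 on the plus strand. The hairpin of mir-148b lies within the span of Copz1 and that of mir-152 within the span of Copz2, a pair of paralogous genes for coatomer subunits, whereas no annotated gene spans mir-148a. Counted from the 5′ end, miR-148a-3p and miR-148b-3p differ by C9U and U10C over 21 bases, miR-148a-3p and miR-152-3p by C9U, U10G and U20G, and miR-148b-3p and miR-152-3p by C10G and U20G. Of 564 mature names of the table with a RefSeq sequence, 3 hold the seed CAGUGCA, and these are the 3p arms of the family. The 6 letters AGUGCA at bases 2 to 7 occur in 3 further names, miR-130a-3p, miR-130b-3p and miR-301b-3p. The seed of miR-148a-5p, AAGUUCU, occurs in no other of these names.

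Values are reads scaled by the authors so that the mature names of a library add up to 1000000 and the precursor names add up to another 1000000. A value is thus a share of one kind of name in one library. By the worth of 1 read, the libraries held 363141 to 1370412 mature reads, with medians of 855220 (amygdala) and 1031166.5 (ventral striatum). The markers of brain (miR-124-3p, miR-128-3p and miR-9a-5p) were present in every library, with sums of 26997 to 53190, and 3 blood markers summed to at most 56.9. Amygdala libraries differed in choroid plexus, the epithelium of the ventricles that makes cerebrospinal fluid: its 6 markers, led by miR-204-5p, summed to between 3669 and 144944 there, but to between 4567 and 12203 in the ventral striatum. The sum was over 100000 in 2 amygdala libraries, both ethanol-exposed non-enriched (female replicate 2 and male replicate 3), and at its highest reached 14.5% of the mature values of a library. Without those 2 libraries 0 of 5 members passed, as with them, for enrichment in the amygdala, for sex in the amygdala and for the difference between regions of the enrichment effect in controls. For the region differences of the members, for their arm ratio and for ethanol in non-enriched amygdala, the values without them are given beside the result.

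The members differed widely in level. Over the 24 amygdala libraries miR-148a-5p ranged from 749 to 1327 with a median of 1103, and over the 24 ventral striatum libraries from 933 to 1756 with a median of 1328. For miR-148b-3p the range was 765 to 1233 (median 963) in the amygdala, against 842 to 1218 (median 1054) in the ventral striatum. By comparison, miR-148a-3p was several times lower, between 108 and 212 (median 162) in the amygdala, against between 128 and 309 (median 213) in the ventral striatum. Lowest of the mature members was miR-152-3p, between 0 and 9.68 (median 4.40) in the amygdala, against between 0 and 9.14 (median 2.04) in the ventral striatum. Among the 612 mature names these members held ranks 75, 82, 146 and 383 by their mean.

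The order of the mature members was nearly fixed from library to library. By the counted values miR-148b-3p was above miR-148a-3p, and miR-148a-3p above miR-152-3p, in all 48 libraries. The 2 highest were closer to each other: miR-148a-5p exceeded miR-148b-3p in 42 libraries, 19 of the 24 from the amygdala and 23 of the 24 from the ventral striatum. Reads behind the values were very few for miR-152-3p and more numerous for the other members. The fewest in any library were 346 for miR-148a-5p, 351 for miR-148b-3p and 57 for miR-148a-3p, whereas miR-152-3p had 0 to 11 reads and reached 3 reads, the most that a count of 0 allows for, in 13 of 24 amygdala and 11 of 24 ventral striatum libraries. This limit covers counting error only. The hairpin entry mir-148a, ranked 19 of 451 precursor names, stood at 7421 to 12664 in the amygdala, against 9670 to 19215 in the ventral striatum. The hairpins thus had the reverse order of their 3p arms, since mir-148b stood at 769 to 1179 in the amygdala and at 855 to 1184 in the ventral striatum. Because a far smaller share of reads was counted for the arms of mir-148a than for that of mir-148b, as given next, the order of miR-148a-3p and miR-148b-3p may not be that of the molecules.

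**Figure D1:**
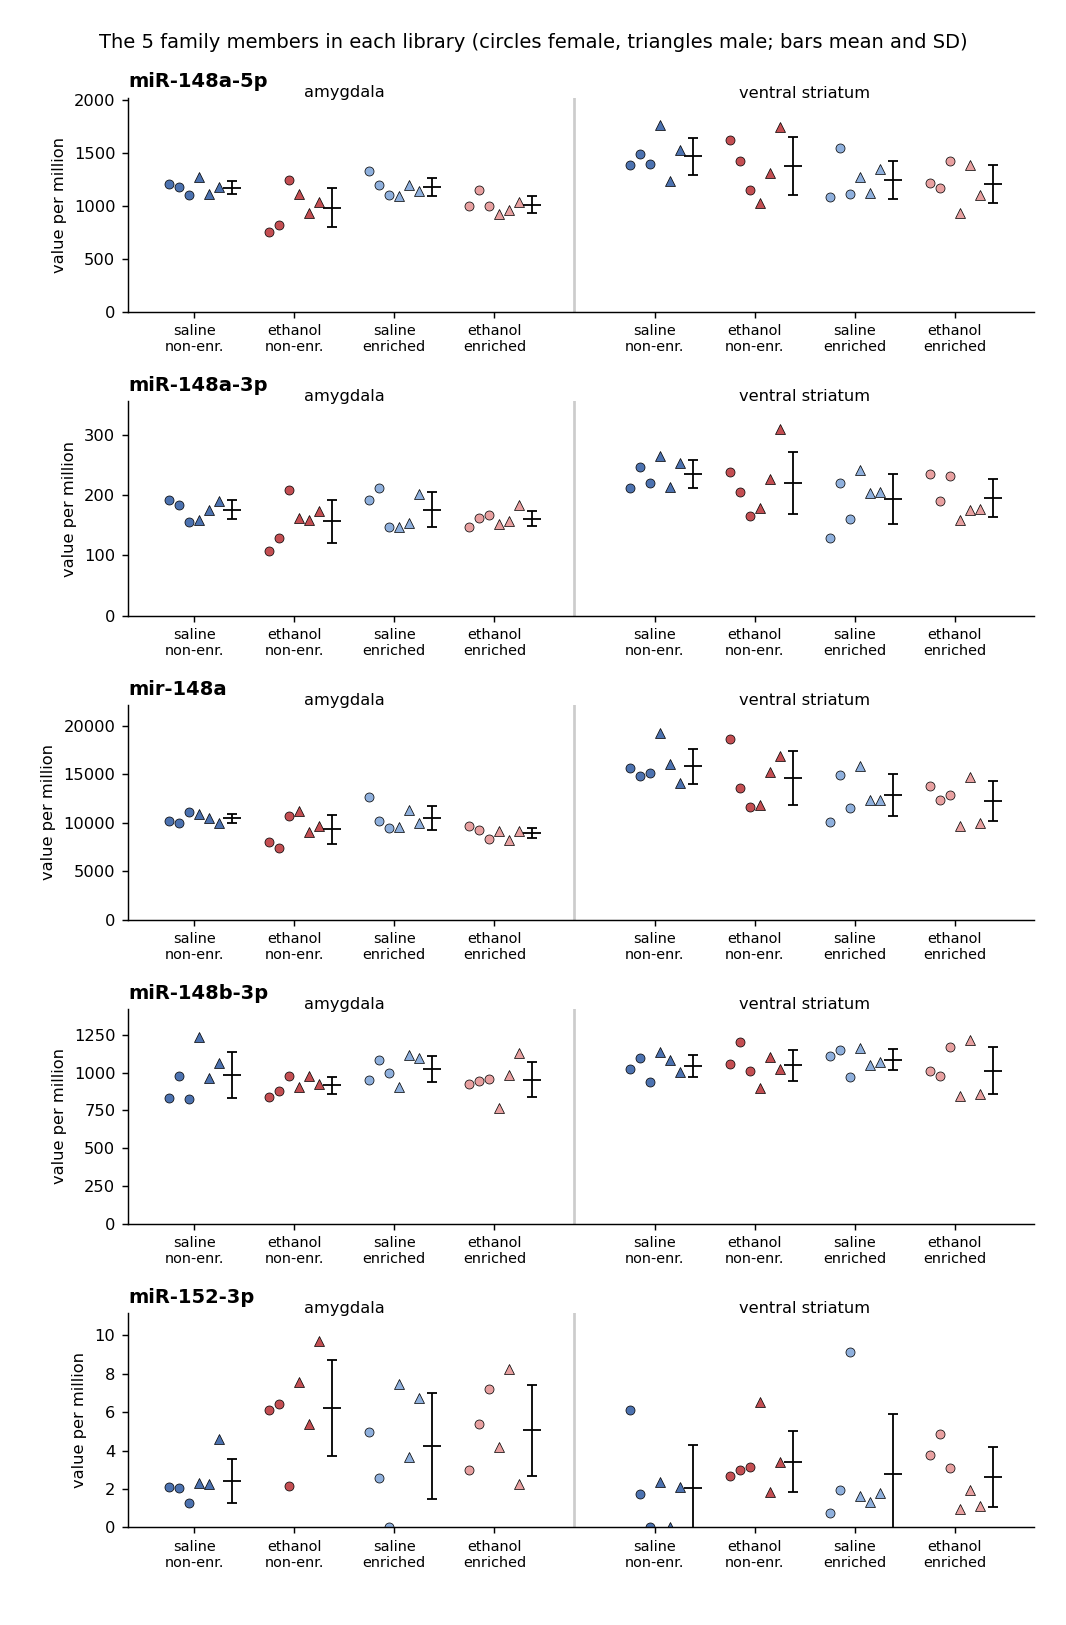
Scaled value of each member in the 48 libraries, by region and treatment group, with every axis starting at 0; a dot is a pool of 3 rats, and the bar beside each group is its mean and SD, drawn down to 0 at most. All 3 names of the mir-148a hairpin sit lower in the amygdala panels than in the ventral striatum panels, with mir-148a at 7421 to 12664 against 9670 to 19215.

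Few of the reads counted for the hairpin mir-148a were also counted for one of its 2 named arms. The libraries were size-selected for RNAs of about the length of a mature miRNA. An entry such as mir-148a therefore holds short reads assigned to the hairpin, and not long precursor RNA. In the hairpin below, the annotated arms are in capitals, the 5p arm first, in order to show how much of it the named arms cover.
mir-148a: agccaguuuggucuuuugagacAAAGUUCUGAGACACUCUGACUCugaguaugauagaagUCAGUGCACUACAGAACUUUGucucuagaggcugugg
The annotated 3p arm ends after 21 bases, and the next base of the hairpin (position 82 of 97) is another u, the base with which the 22 bases of miR-148b-3p end. Of the reads counted for mir-148a, 10.3% ± 1.17 (SD, n = 48) were counted for an arm, with a range of 7.66% to 12.3%. For mir-148b the share counted for miR-148b-3p alone was 86.5% ± 1.79 (SD, n = 48). Among 130 hairpins with a mean value of at least 100, the median share was 83.4%, and mir-148a ranked 15th from the bottom. That rank includes hairpins with only 1 matched arm, whose share can come out too low. An example is mir-301a at 0%, for which miR-301a-3p was not among the matched arms. Among the 94 hairpins with both arms in the table, mir-148a ranked 6th from the bottom. For let-7d and mir-340-1 the value was over 100% (538.9% and 162.5%), so it is not a strict share for every hairpin. Where on the hairpin the other reads lie, on the arms or beside them, was not analysed here, and the rule by which reads were divided between names is not given in the sources used here. Reads of miR-148a-3p that run past its annotated end may have been left uncounted. Levels of the arms and their ratio are therefore those of the counted values.

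Of the counted arm reads of mir-148a, most were 5p. The ratio of miR-148a-5p to miR-148a-3p was 6.43 ± 0.732 (SD, n = 48), with a range of 5.17 to 8.41, and 5p made up 86.4% ± 1.29 of both arms together. The ratio was 6.52 ± 0.687 (SD, n = 24) for the amygdala and 6.33 ± 0.777 (SD, n = 24) for the ventral striatum, and the ranges overlapped almost entirely. On the log2 scale the regions differed by 0.044, which a permutation test within sex and treatment did not separate from 0 (two-sided p = 0.336; 0.051 and permutation p = 0.288 without the 2 libraries of highest choroid plexus markers). In the ventral striatum none of the unlisted treatment contrasts of the arm ratio passed an exact permutation test (6 against 6 libraries). The log2 difference was 0.010 for ethanol in non-enriched rats (two-sided exact permutation p = 0.877). It was −0.075 for ethanol in enriched rats (exact permutation p = 0.561) and 0.069 for enrichment in controls (exact permutation p = 0.545). These values are unadjusted, because the adjustment that was run covered a family of 4 contrasts that included the listed one. The smallest p that 6 against 6 allows is 0.00216. For enrichment in ethanol-exposed rats, a contrast for which the hairpin was listed, the log2 difference was −0.015. In the amygdala the ethanol-exposed groups had ratios of 6.32 ± 0.482 (non-enriched) and 6.27 ± 0.564 (enriched), against 6.69 ± 0.694 and 6.80 ± 0.942 in the matching controls (SD, n = 6 each), log2 differences of −0.080 and −0.110 that are given without a test.

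The hairpin and its arms did not differ by the same amount between regions. The share of mir-148a reads counted for an arm was 11.0% ± 0.846 (SD, n = 24) in the amygdala, against 9.52% ± 0.951 (SD, n = 24) in the ventral striatum. The log2 ratio of the hairpin value to the sum of its arms was lower by 0.20 in the amygdala (2.97 against 3.17; two-sided permutation p = 2e-05, with and without the 2 libraries of highest choroid plexus markers), a test chosen after the values were seen.

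**Figure D2:**
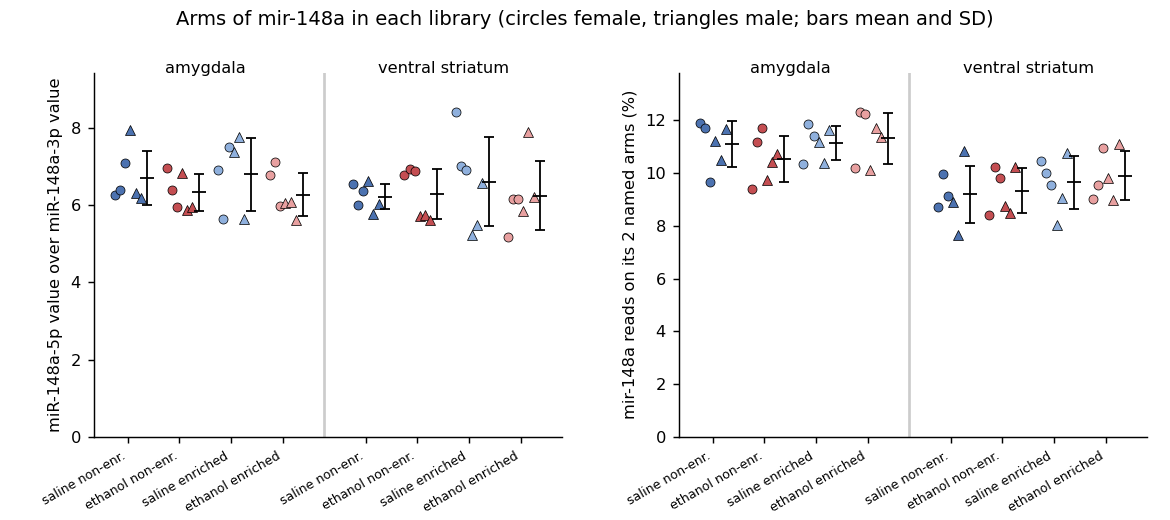
Left, the miR-148a-5p value over the miR-148a-3p value in each library; right, the percentage of mir-148a reads counted for either named arm; dots are libraries and bars group means with SD. The ratio lies between 5.17 and 8.41 over all groups, while the share on the arms is 11.0% for the amygdala and 9.52% for the ventral striatum.

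The members differed between the amygdala and the ventral striatum, and not all in the same direction. All 3 names of the mir-148a hairpin were lower in the amygdala, miR-148b-3p was slightly lower, and miR-152-3p, on very few reads, was higher. In limma's fit to 48 libraries all 5 members passed an adjusted p of 0.05 (Benjamini-Hochberg over 968 names), where 28.5% of all names did (276 names; 79, or 8.16%, were higher in the amygdala and 197, or 20.4%, lower). The median difference of all names was −0.076 on the log2 scale, so that differences near this value are no more than those of a typical name.

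The clearest difference was that of mir-148a, the hairpin entry. Its group means in the amygdala were between 8945 and 10501, and in the ventral striatum between 12222 and 15816, so that no amygdala group reached the lowest ventral striatum group. It was lower by 0.49 on the log2 scale in the amygdala (SE 0.06, 95% interval −0.61 to −0.37, limma adjusted p = 1.41e-07), to 0.712 of the ventral striatum level, and held rank 10 of 968 by p. All 24 amygdala libraries were below the median of the ventral striatum, and 12 were below its lowest library. Within treatment the 6 libraries of each region did not overlap in control non-enriched rats (3.2% of names were likewise lower without overlap), in ethanol-exposed non-enriched rats (1.96% of names) and in ethanol-exposed enriched rats (2.48% of names), but overlapped in control enriched rats, whose means were 10501 and 12854 (0.31% of names were lower without overlap there).

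Both arms went the same way. For miR-148a-3p the amygdala was lower by 0.32 on the log2 scale (SE 0.07, limma adjusted p = 0.000472) and for miR-148a-5p by 0.28 (SE 0.06, limma adjusted p = 0.00049). All 24 amygdala libraries were below the ventral striatum median for each arm, though the ranges overlapped. Within treatment, the ratio of the miR-148a-5p means, amygdala over ventral striatum, was 0.799 in control non-enriched, 0.943 in control enriched, 0.712 in ethanol-exposed non-enriched and 0.836 in ethanol-exposed enriched rats. Without the 2 libraries over 100000 the differences were −0.47 for mir-148a, −0.32 for miR-148a-3p and −0.27 for miR-148a-5p (limma adjusted p = 8.97e-07, 0.00113 and 0.00139). The direction of miR-148a-5p was the same in all 4 groups and smallest in size in the enriched controls.

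For miR-148b-3p the amygdala mean was 968 ± 110 and the ventral striatum mean 1048 ± 102 (SD, n = 24 each), a log2 difference of −0.12 (SE 0.04, limma adjusted p = 0.0492). This call was lost in many of the alternatives: the difference was −0.05 after median-ratio rescaling (adjusted p = 0.425) and −0.08 with the choroid plexus markers taken out of the totals (adjusted p = 0.172), and it was −0.11 without the 2 libraries over 100000 (adjusted p = 0.079), both alternatives added after the data were seen. Its hairpin mir-148b, which holds nearly the same reads, differed by −0.11 (limma adjusted p = 0.0402).

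For miR-152-3p the amygdala mean was 4.48 ± 2.55 and the ventral striatum mean 2.72 ± 2.14 (SD, n = 24 each), a log2(value + 1) difference of 0.59 (SE 0.21, limma adjusted p = 0.0371). On so few reads the size depended on the pseudocount: it was 0.87 with 0.1, where the call was lost (adjusted p = 0.109), and 0.18 with 10 (adjusted p = 0.0265). The other names of that hairpin pointed the same way: mir-152 was higher by 0.75 (limma adjusted p = 0.0196), with means of 12.4 ± 6.54 and 6.93 ± 4.72, and miR-152-5p by 0.59 (limma adjusted p = 0.0492). These 3 names share reads and are not independent. The difference for miR-152-3p was 0.34 (adjusted p = 0.291) with the choroid plexus sum as a covariate and 0.54 (adjusted p = 0.0764) without the 2 libraries over 100000, both added after the data were seen. The names most like miR-152-3p over the 48 libraries were miR-204-5p (r = 0.496), miR-34c-3p (r = 0.496) and miR-1298 (r = 0.459); miR-204-5p and miR-1298 are among the choroid plexus markers, and miR-34c-3p is the opposite arm of another of them. Of the 6 markers 2 were called higher in the amygdala, with a median log2 difference of 0.90. In amygdala libraries with a choroid plexus sum over 10000 (a bound set in a gap of the values) the means of miR-152-3p were 6.75 in 7 ethanol-exposed and 4.52 in 6 control libraries, and under it 4.07 in 5 and 2.15 in 6. The part of choroid plexus tissue in the difference was not tested beyond these values.

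Of the names with the neighbouring hexamer and miR-301a-3p, which was listed with them but whose mature sequence was not used here, 2 passed, in opposite directions. In the amygdala miR-130a-3p was higher (837 ± 156 against 658 ± 150, log2 difference 0.35, limma adjusted p = 0.0022) and miR-301a-3p lower (831 ± 114 against 1037 ± 118, log2 difference −0.32, limma adjusted p = 8.62e-05), all SD with n = 24. The scarcer miR-130b-3p and miR-301b-3p, with log2 differences of −0.30 and −0.53, did not pass (limma adjusted p = 0.203 and 0.128).

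**Figure D3:**
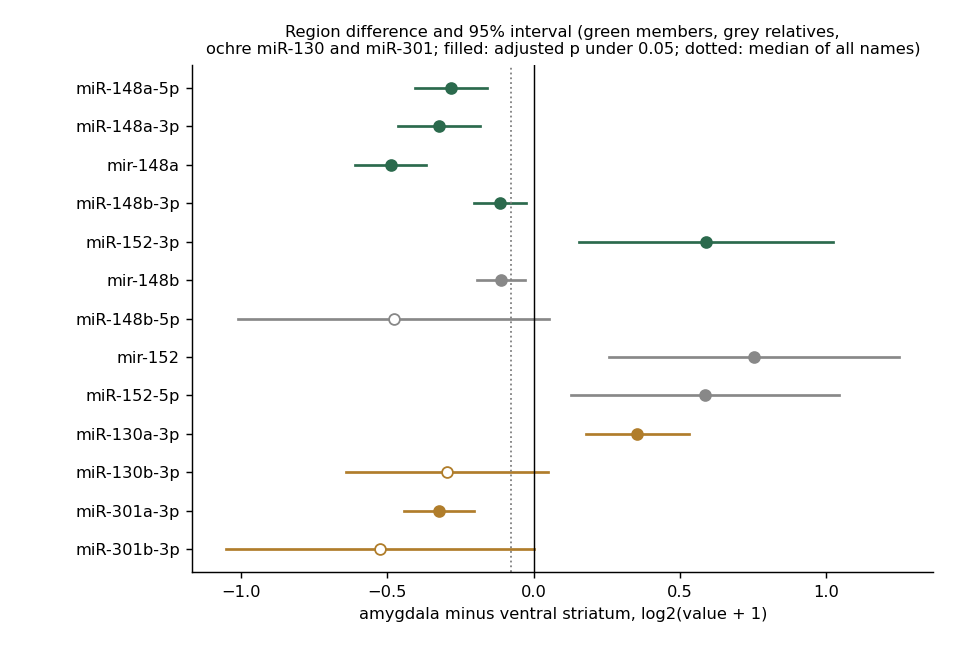
Amygdala minus ventral striatum on the log2(value + 1) scale with 95% intervals, for the 5 members, 4 other names of their hairpins and 4 names of the miR-130 and miR-301 hairpins; filled points have a limma adjusted p under 0.05 and the dotted line is the median of all names, −0.076. The names of mir-148a lie at −0.28 to −0.49, those of mir-152 at 0.59 to 0.75, and those of mir-148b that pass at −0.12 and −0.11.

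Markers of oligodendrocytes, the myelin-forming cells of white matter, moved with the region as well: all 3 (miR-219a-5p, miR-219a-2-3p and miR-338-3p) were called lower in the amygdala, with a median log2 difference of −0.49. Within the ventral striatum, however, the names of mir-148a were low where these markers were high. Over 24 libraries mir-148a correlated with the log2 sum of the 3 markers at r = −0.711 (permutation p = 0.00012, adjusted over 10 relations 0.0006) and rho = −0.774 (p = 3e-05, adjusted 0.0003), and at r = −0.779 without the 2 libraries farthest from the median sum. For miR-148a-3p r was −0.736 (permutation p = 5e-05, adjusted 0.0005) with rho −0.688 (p = 0.00031, adjusted 0.00155), and without the 2 farthest libraries r was −0.786. For miR-148a-5p r was −0.567 (permutation p = 0.00427, adjusted 0.0142) with rho −0.594 (p = 0.00251, adjusted 0.00837), and without those libraries r was −0.645. After the group means were taken out, r was still −0.774, −0.777 and −0.619 for the 3 names. The relation was examined after the data were seen. The share of all names with such an r was not determined, so it cannot be called particular to mir-148a. The relation of miR-148b-3p was weaker and did not pass (r = −0.408, permutation p = 0.0476, adjusted 0.119; rho = −0.390, p = 0.0599, adjusted 0.150), and miR-152-3p had r = 0.0473 (permutation p = 0.827, adjusted 0.827) and rho = 0.0839 (p = 0.696, adjusted 0.773).

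In the amygdala none of the 5 relations passed. The r of mir-148a was −0.191 (permutation p = 0.370, adjusted 0.529), that of miR-148a-5p −0.221 (p = 0.301, adjusted 0.502) and that of miR-148a-3p −0.358 (p = 0.0864, adjusted 0.173), and without the 2 libraries of most extreme sum they were 0.173, 0.158 and −0.164. The mature names of a library share one total with the markers, whereas mir-148a is scaled to the total of the precursor names. That total holds hairpins of the same markers, such as mir-338, with 99.1% of its reads on its arms. The separate scaling therefore does not remove the sharing. With the oligodendrocyte sum as a covariate, the region differences of the mir-148a names were larger, −0.61 for mir-148a, −0.47 for miR-148a-3p and −0.40 for miR-148a-5p. That fit has a common slope for both regions, although the relation passed only in the ventral striatum. The part of oligodendrocytes in the region difference was not tested. In pooled tissue, fewer cells of a type and less RNA per cell cannot be told apart.

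In the amygdala of ethanol-exposed rats miR-148a-5p was lower than in controls, which is the observation that put it on the study's list. In control non-enriched rats its value ranged from 1096 to 1265 with a median of 1171, and in ethanol-exposed non-enriched rats from 749 to 1241 with a median of 980. In control enriched rats the range was 1089 to 1327 with a median of 1167, and in ethanol-exposed enriched rats 919 to 1151 with a median of 993. Thus 4 of 6 ethanol-exposed libraries lay below every control in the non-enriched and 5 of 6 in the enriched rats, and the groups overlapped in both. The log2 differences were −0.275 (SE 0.10) and −0.22 (SE 0.10), and over all 910 names 0% passed an adjusted p of 0.05 in either contrast (41 names, 4.51%, had an unadjusted p under 0.05 in non-enriched and 35 names, 3.85%, in enriched rats).

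The other names of the hairpin gave smaller or like differences. For mir-148a the group means were 10434 ± 468 and 9315 ± 1486 in control and ethanol-exposed non-enriched rats, and 10501 ± 1245 and 8945 ± 548 in control and ethanol-exposed enriched rats (SD, n = 6 each), log2 differences of −0.18 and −0.23. For miR-148a-3p the log2 differences were −0.19 (means 176 and 156) and −0.11 (means 176 and 161). They were −0.09 and −0.11 for miR-148b-3p, and 1.04 and 0.39 for miR-152-3p, where 5 of 6 ethanol-exposed non-enriched libraries, at up to 9.68, lay above every control but on no more than 11 reads. The median of all names was −0.083 in the non-enriched and −0.030 in the enriched contrast. After median-ratio rescaling the difference of miR-148a-5p was −0.17 in the non-enriched and −0.19 in the enriched rats, and that of miR-148b-3p in the non-enriched rats turned to 0.018.

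Choroid plexus markers were higher, by estimate, in ethanol-exposed than in control non-enriched amygdala. The fitted difference was above 0 for all 6, with a median of 1.71 on the log2 scale and 0 called, and their sums ranged from 4089 to 144944 there against 3669 to 41634 in the controls. The lowest 2 values of miR-148a-5p, 749 and 821, came from ethanol-exposed non-enriched females 1 and 2, whose choroid plexus sums were 54948 and 144944 and whose oligodendrocyte sums were 13770 and 11881, against a median of 7089 over the region. Male 3 of the same group had a choroid plexus sum of 128886. Its miR-148a-5p value was 1030, above the group median of 980, and its oligodendrocyte sum was 4671. A split of the amygdala libraries by this sum takes both housings together, so it does not divide the non-enriched contrast. In the 11 amygdala libraries with a choroid plexus sum under 10000, miR-148a-5p was 1104 ± 98.6 in 5 ethanol-exposed and 1172 ± 62.03 in 6 control libraries, a log2 ratio of −0.09. In the 13 libraries over 10000 it was 914 ± 97.9 in 7 ethanol-exposed and 1172 ± 88.2 in 6 control libraries, a log2 ratio of −0.36. For mir-148a these ratios were −0.06 and −0.31, and for miR-148b-3p −0.12 and −0.06. Leaving out single libraries moved the non-enriched difference of miR-148a-5p between −0.39 and −0.20, and without the 2 libraries over 100000 it was −0.24, with −0.115 for mir-148a, −0.18 for miR-148a-3p, −0.08 for miR-148b-3p and 0.84 for miR-152-3p. With the choroid plexus markers taken out of the totals it was −0.21. The part of choroid plexus tissue in the difference was not tested.

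**Figure D4:**
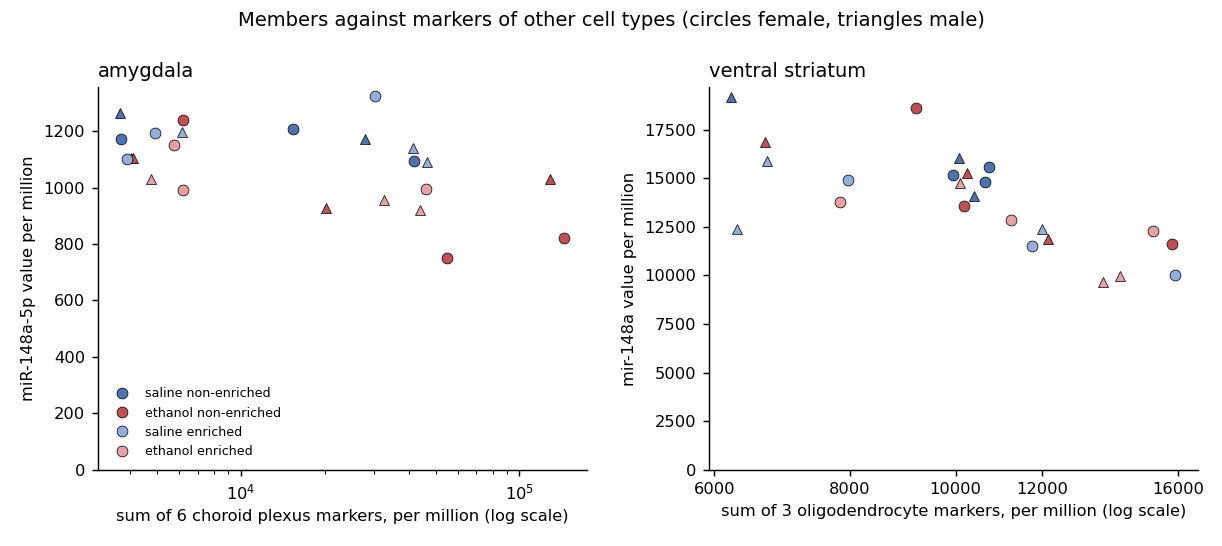
Left, miR-148a-5p against the sum of 6 choroid plexus markers in the 24 amygdala libraries; right, mir-148a against the sum of 3 oligodendrocyte markers in the 24 ventral striatum libraries; the x axes are logarithmic and colours give the treatment group. On the left the ethanol-exposed libraries of both housings over 10000 average 914 and the controls 1172. On the right mir-148a is lower where the markers are higher (r = −0.711).

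In the ventral striatum, whose libraries had no part in that listing, the ethanol difference of miR-148a-5p did not pass the test. With housings averaged the log2 difference was −0.08 (SE 0.10, 95% interval −0.28 to 0.13, limma adjusted p = 1). Means were 1464 ± 175 and 1375 ± 273 in control and ethanol-exposed non-enriched rats and 1245 ± 179 and 1205 ± 183 in control and ethanol-exposed enriched rats (SD, n = 6 each), with overlap in both. The differences were −0.10 for mir-148a, −0.05 for miR-148a-3p, −0.06 for miR-148b-3p and 0.46 for miR-152-3p, each with a limma adjusted p of 1. None of the 5 members passed here or in the non-enriched and enriched contrasts taken alone, where 0% of 933 names passed (30, 19 and 21 names, or 3.22%, 2.04% and 2.25%, had an unadjusted p under 0.05 in the averaged, the non-enriched and the enriched contrast). The ethanol-exposed libraries here are also those of the contrast that listed mir-148a, so the test of mir-148a is not independent of that listing. The interval of miR-148a-5p includes the differences seen in the amygdala. The difference between the regions of this effect contains the listed amygdala contrasts and is given without a test: it was −0.17 for miR-148a-5p, −0.11 for miR-148a-3p, −0.10 for mir-148a, −0.04 for miR-148b-3p and 0.26 for miR-152-3p.

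In the ventral striatum the mir-148a names were lower in enriched than in non-enriched rats of either prenatal treatment, by differences that overlap between groups. In ethanol-exposed rats, the contrast for which mir-148a was listed, its range was 11607 to 18618 with a median of 14412 without enrichment and 9670 to 14746 with a median of 12585 with it, a log2 difference of −0.255. The arms differed by −0.18 (miR-148a-5p) and −0.17 (miR-148a-3p), miR-148b-3p by −0.06 and miR-152-3p by −0.33 in the same contrast. The groups overlapped for each of them, and 17 of 933 names (1.82%) had an unadjusted p under 0.05 there, with 0% after adjustment.

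The control rats, whose libraries are in neither group of that contrast, gave differences of −0.31 to −0.24 for the same names. For mir-148a the range was 14074 to 19215 with a median of 15381 in non-enriched and 10046 to 15895 with a median of 12380 in enriched controls. Of 6 enriched libraries, 4 lay below every non-enriched one and 5 below their median. The log2 difference was −0.31 (SE 0.14, 95% interval −0.60 to −0.02, limma unadjusted p = 0.0406, adjusted p = 1). For miR-148a-3p the range was 212 to 265 in non-enriched and 128 to 242 in enriched controls, with medians of 234 and 205, and the log2 difference was −0.31 (SE 0.14, limma unadjusted p = 0.0404, adjusted p = 1). For miR-148a-5p it was −0.24 (SE 0.14, limma unadjusted p = 0.104, adjusted p = 1), with means of 1464 ± 175 and 1245 ± 179.

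These differences did not pass over all names. Of 933 names 36 (3.86%) had an unadjusted p under 0.05 and 0% an adjusted one, and the 2 members among the 36 share a hairpin. The members from other hairpins did not go the same way, with log2 differences of 0.05 for miR-148b-3p (means 1046 ± 73.2 and 1085 ± 71.2) and 0.35 for miR-152-3p. The oligodendrocyte sums ranged from 6218 to 10739 in non-enriched and from 6299 to 15920 in enriched controls, with medians of 10234 and 9857; with their log2 as a covariate the differences of mir-148a and miR-148a-3p were −0.31 and −0.30 (limma adjusted p = 0.865 for both). In ethanol-exposed rats the same covariate left −0.17 for mir-148a.

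In the amygdala the housing groups were close to each other. In controls the means of mir-148a were 10434 ± 468 without and 10501 ± 1245 with enrichment, and those of miR-148a-5p 1169 ± 63.3 and 1174 ± 87.2. In ethanol-exposed rats mir-148a was at 9315 ± 1486 and 8945 ± 548, and miR-148a-5p at 980 ± 183 and 1007 ± 80.1 (SD, n = 6 each). None of the 5 members passed in either contrast, with 0% of 910 names passing and 24 names (2.64%) at an unadjusted p under 0.05 in each. Both contrasts use libraries of the ethanol contrasts for which miR-148a-5p was listed, so these tests are not independent of that listing. In control rats, the enrichment effect on mir-148a was higher in the amygdala than in the ventral striatum by 0.31 on the log2 scale, an interaction computed after the values were seen, and this did not pass (SE 0.17, limma unadjusted p = 0.0718, adjusted p = 1; 0% of 968 names passed and 2.58% had an unadjusted p under 0.05). For miR-148a-3p it was 0.29 (SE 0.20, limma unadjusted p = 0.141, adjusted p = 1). Averaged over prenatal treatments, a quantity that contains the listed contrast and is given without a test, the difference was 0.26 for mir-148a, 0.24 for miR-148a-5p, 0.27 for miR-148a-3p, 0.06 for miR-148b-3p and 0.05 for miR-152-3p.

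The sexes were compared in each region, and 0 of 5 members passed limma's test (0% of 910 and of 933 names; 4.18% and 2.89% had an unadjusted p under 0.05). The smallest p was that of miR-152-3p in the amygdala, where females were lower by 0.56 on the log2(value + 1) scale (limma unadjusted p = 0.0533, adjusted p = 0.988).

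Members of one hairpin varied together within groups. As a description over the 48 libraries, after the means of sex, region and treatment were taken out, miR-148a-5p had r = 0.795 with miR-148a-3p and 0.774 with mir-148a, but 0.520 with miR-148b-3p and −0.009 with miR-152-3p. The 2 abundant 3p arms, which share a seed, had r = 0.382. Of 304 other mature names with a mean of at least 10, the names most like miR-148a-5p in these deviations were miR-337-5p (r = 0.786), miR-221-3p (0.758) and miR-324-5p (0.721). The names nearest to mir-148a were miR-103-3p (0.766), miR-153-3p (0.719) and miR-409b (0.713), and to miR-148a-3p miR-212-5p (0.728), miR-337-5p (0.711) and miR-132-3p (0.672), the last with miR-212 from one activity-regulated locus. For miR-148b-3p they were miR-29a-3p (0.681), miR-29b-3p (0.665) and miR-129-2-3p (0.650). With the differences between groups left in, r with mir-148a was 0.887 for miR-103-3p, 0.875 for miR-153-3p and 0.860 for miR-409b, and with miR-148a-5p 0.830 for miR-337-5p. All points of such an r share their libraries and depth.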

How the data were processed

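Small RNA of pools of 3 rats was sequenced on a MiSeq. The authors trimmed bases under a phred score of 20, aligned the reads with Bowtie to Rn5 and quantified them in Partek Flow against miRBase 21. The deposited signal, which its header calls RPM, adds up to 1000000 over mature and again over precursor names in each library. Of low values 93.1% to 99.6% (mature) and 86.1% to 92.9% (precursor) were whole reads within 0.02, so no count test was used. The 122 lines of 56 names that share a name were added up. No library had the values of another (0 pairs). Names above 0 in at least 6 libraries were tested on log2(value + 1), a scale that understates changes of low names, with limma 3.58.1 in R 4.3.3 (trend, two-sided, Benjamini-Hochberg over all names) with cells of sex and treatment, 8 in a region or 16 over both. Permutation tests drew 100000 resamples or were exact (Python 3.11.15, numpy 2.4.6, pandas 2.3.3, scipy 1.17.1; figures with matplotlib 3.10.9). All members are named, and for each the 3 mature names from other hairpins with the highest r. Members, lists, tests and alternatives were chosen with earlier results of these data known; the alternatives that use choroid plexus or oligodendrocyte markers, the relation to oligodendrocyte markers and the tests of hairpin against arms and of the enrichment effect between regions were added after the data were seen. As alternatives the pseudocount was 0.1 or 10, the filter was dropped or set to a mean of 10, and the others were median-ratio rescaling, mature names only, models without moderation on log2 and unlogged values, the replicate number as a block, the 12 libraries compared alone, consecutive library numbers as a random block, and each library left out. The tests were checked on simulated data. Labels do not say that pools used separate litters, so p-values measure the spread between pools. Differences between regions of the ethanol and enrichment effects were planned as tests for members not listed, but are given without one because they contain the listed contrasts. Microarray values were not analysed here.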

Additional observations from a re-analysis of the deposited data

Results flagged for a closer look

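Of 48 groups of 6 libraries (5 members and the arm ratio, by region and treatment), 3 had a library whose gap to the next value exceeded Dixon's critical share of the group's range; chance alone flags about 5% of groups. All were high values of miR-152-3p: 4.604 in control non-enriched male 3 of the amygdala (next 2.33), 6.511 in ethanol-exposed non-enriched male 1 of the ventral striatum (next 3.39) and 9.135 in control enriched female 3 of the ventral striatum (next 1.94). None rests on more than 11 reads.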

How the results depend on the processing

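The region differences of mir-148a, miR-148a-3p and miR-148a-5p kept direction and call under all alternatives run, with log2 differences of −0.61 to −0.42, −0.47 to −0.26 and −0.40 to −0.21 on log scales. The number of members called between regions, 5 in the reported fit, was 3 with a pseudocount of 0.1, with mature names only, with the choroid plexus sum as a covariate and without the 2 libraries over 100000, because miR-148b-3p or miR-152-3p or the hairpin entry dropped out; it was 3 to 5 with single libraries left out, and 13 of 48 such fits gave 3. The call of miR-148b-3p was lost in 9 of 14 alternatives (adjusted p 0.0213 to 0.425 over all) and 30 of 48 left-out libraries, that of miR-152-3p in 3 of 13 (0.0265 to 0.291) and 16 of 48. Names called were 276, against 138 with mature names only, where fewer names were tested, and 249 to 299 with libraries left out. No member was called in any tested treatment or sex contrast under the alternatives run. The small ventral striatum ethanol difference of miR-148a-3p turned from −0.05 to 0.051 with the oligodendrocyte covariate and ranged from −0.097 to 0.006 with libraries left out, and the enrichment difference of miR-152-3p in controls ranged from −0.009 to 0.702; the cause was not tested. The untested value of miR-152-3p for ethanol in non-enriched amygdala was 0.37 with a pseudocount of 10 against 1.04. Replicate numbers showed no pairing of the libraries within a region. Libraries with one number and sex correlated in their deviations at a median r of −0.055 (amygdala) and 0.029 (ventral striatum), with 14 of 36 pairs over 0.1 in each. Between regions the median r was 0.03 for one number, sex and treatment and 0.046 for consecutive library numbers (11 of 24 pairs over 0.1 in each). The reported region tests treat the 48 libraries as unpaired, although both regions came from the same animals. The replicate block changed no call of a member (5 called between regions, 0 in each treatment contrast). For the arm ratio between regions, values centred by replicate number within each region gave 0.044 (permutation p = 0.312, permuted within sex and treatment), and left-out libraries 0.031 to 0.062. Among the members only miR-152-3p had libraries under 3 reads. Some libraries held few reads of miR-148a-3p as well, 57 at the lowest. The part of counting error in its differences and in the arm ratio was not estimated.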
